A study of Mus musculus with 1152 samples.

Results

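The genes described here were 10 members of the Notch pathway in lymphatic endothelial cells (LECs) sorted from aged mouse nasopharynx: the receptors Notch1 and Notch4, the ligands Dll4, Jag1 and Jag2, the nuclear partner Rbpj and the target genes Hes1, Hey1, Hey2 and Heyl. They were chosen by name, and all 10 were found among the 23168 genes of the deposited table. The samples formed a single group of c57bl/6 mice, aged LECs of the nasopharyngeal lymphatic plexus (NPLP), with no treatment named. The nasopharyngeal mucosa of aged mice of both sexes had been pooled, and cells positive for CD31 and podoplanin were sorted 1 per well and made into Smart-seq3 libraries, which cover whole transcripts. Of the labelled cells, 56.9% were analysed here. No label tied a cell to an animal, so the cells were 1 pooled sample, no test between groups was possible, and no comparison with younger mice was made.

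Notch is a receptor on the cell surface that is activated by ligands of the Delta and Jagged families on a neighbouring cell. ADAM proteases and gamma-secretase then cut the receptor, and its intracellular part moves to the nucleus, where it joins RBPJ and Mastermind coactivators and switches on target genes such as the Hes and Hey repressors. In endothelium the pathway is known for arterial identity, for restraining sprouting and, in lymphatics, for sprouting and valve formation.

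The shallowest cell had 7046 reads, the median cell 148202 and the deepest 10727631, and between 2006 and 7679 genes were detected in a cell. A gene is called detected in a cell at 1 read or more. Because detection rises with depth, shares are also given for cells with at least 20000 reads after each had been thinned at random to 20000 reads, with 88 shallower cells left out. Brackets hold exact (Clopper-Pearson) 95% intervals for counting error alone; they do not cover differences between mice. Of 8 genes listed for lymphatic identity, the median was detected in 98.2% of cells and the lowest, Pdpn, in 94.8%. Pdpn and Pecam1 (CD31) are on this list and were the sort markers, so their shares do not test the label. Cdh5, also listed, is a pan-endothelial marker in the study. Of the genes not used for sorting, Flt4 was found in 100% and Prox1 in 97.1%. Lists for other cell types differed. The epithelial gene Epcam was detected in 0 cells, the 5 mural genes had a median share of 0.915% and a highest of 3.51% (Acta2), and the 5 haematopoietic genes had a median of 0.915%. Of 3 arterial genes, Bmx and Cxcl12 were common, with Cxcl12 in 45.9% of cells, whereas Sox17 was found in 1.98%. The 5 fibroblast genes had a median of 1.83% with Dcn highest at 30.03%, the 3 glial genes a median of 1.83%, and the 6 blood endothelial genes a median of 61.7%, from Flt1 at 2.44% to Cldn5 at 100%.

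Notch1 and Dll4 were the receptor and ligand found in most cells, Hes1 was the most frequently detected target, and Hey2 had no read in any cell. The median share of cells over the 10 members was 34.6%, against 7.62% over the 20981 genes with a read. Of the members, 7 had reads in 10% of cells or more, as did 46.1% of all genes with a read.

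Promoter sequences were looked up because RBPJ recognises a short DNA motif with the core TGGGAA. The RefSeq table (GRCm38.p6, the assembly also called mm10) held promoter windows for 7 members, from 250 bases before to 50 bases after each start, and had no entry for Hes1, Hey1 or Heyl. The core was searched on both strands, the other strand reading TTCCCA. It was present in windows of 2 members, Rbpj and Hey2, and absent from those of Notch1, Notch4, Dll4, Jag1 and Jag2. Among all 32851 windows, 25.6% held the core at least once and 3.79% held it 2 times or more. The 2 windows with a pair of matches are shown from their first base to 10 bases past the start, 5′ to 3′ on the strand of the gene, with the matches in capitals. The first lies at chr5:53590096-53590355 (+ strand) and the second at chr10:30842774-30843033 (- strand).
Rbpj: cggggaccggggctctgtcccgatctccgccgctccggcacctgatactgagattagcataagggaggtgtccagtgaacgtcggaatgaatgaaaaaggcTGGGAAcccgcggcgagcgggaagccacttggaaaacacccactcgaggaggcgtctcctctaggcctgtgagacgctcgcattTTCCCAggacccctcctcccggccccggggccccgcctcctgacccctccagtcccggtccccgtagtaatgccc
Hey2: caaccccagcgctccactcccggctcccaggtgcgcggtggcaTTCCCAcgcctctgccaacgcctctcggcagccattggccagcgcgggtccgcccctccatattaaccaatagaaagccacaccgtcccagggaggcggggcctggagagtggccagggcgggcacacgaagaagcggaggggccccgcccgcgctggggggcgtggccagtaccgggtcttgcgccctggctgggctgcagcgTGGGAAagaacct
Counted from the start, the matches began at -149 and -65 in Rbpj and at -207 and -3 in Hey2. Rbpj and Hey2 differed in level, Rbpj being found in 36.1% of cells and Hey2 in 0. The matches are a description of the letters only.

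Notch1 (ENSMUSG00000026923.15, chr2:26457903-26516663, - strand) was detected in 86% of cells (83.1 to 88.5%). Levels are natural logs of 1 plus reads per 10000. The mean was 0.94 ± 0.70 (SD over cells), single cells ran from 0 to 3.39, and the median detected cell held 1.85 reads per 10000. These values ranged widely, but depth also differed widely between cells. The part of counting noise in this spread was not tested. Its share rose from 67.7% in the 25% of cells with the fewest reads to 98.8% in the deepest 25%, and it was 76.1% (72.3 to 79.5%) in thinned cells.

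Notch4 (ENSMUSG00000015468.14, chr17:34564268-34588503, + strand), a receptor described mainly in endothelium, was detected in 40 cells, or 6.10% (4.39 to 8.21%), with a median of 3 reads in those cells. The share was 2.46% after thinning. The other receptors differed as much: Notch2 was found in 69.2% of cells (65.5 to 72.7%) and Notch3, known from mural cells, in 0 cells (0 to 0.561%). Notch1 and Notch2 were thus the receptors of most cells.

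Dll4 (ENSMUSG00000027314.6, chr2:119325784-119335962, + strand), the Delta ligand of endothelial cells, was detected in 76.5% of cells (73.1 to 79.7%) and in 60.6% (56.4 to 64.6%) of thinned cells. Its mean was 0.78 ± 0.76 (SD over cells) and its highest value 2.91. A transcript on the opposite strand, Gm14207, overlaps Dll4 and was detected in 17.5% of cells; whether the counting used strand is not given in the sources used here, so reads of the pair may be mixed.

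The Jagged ligands were found in fewer cells. Jag1 (ENSMUSG00000027276.7, chr2:137081456-137116644, - strand) was detected in 37.5% of cells (33.8 to 41.3%), with a mean of 0.13 ± 0.28, and in 16.9% after thinning. Jag2 (ENSMUSG00000002799.6, chr12:112907819-112929776, - strand) was detected in 33.1% (29.5 to 36.8%), with a mean of 0.22 ± 0.45, and in 22.5% after thinning. The order of the Jagged ligands thus changed with thinning, and their intervals overlapped in unthinned cells, at 33.8 to 41.3% and 29.5 to 36.8%, and in thinned cells, at 13.9 to 20.2% and 19.2 to 26.2%. Single cells reached 1.92 for Jag1 and 3.80 for Jag2. Dll1, another Delta ligand, was found in 25.3% of cells, and Dll3 and Dlk1 in 1.07% and 0.915%.

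Rbpj (ENSMUSG00000039191.12, chr5:53466152-53657362, + strand), which encodes the DNA-binding partner of the receptor fragment, was detected in 36.1% of cells (32.4 to 39.9%) and in 22.4% after thinning, with a mean of 0.16 ± 0.32 (SD over cells). Its reads may be split with annotated Rbpj pseudogenes, which were not analysed here.

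Hes1 (ENSMUSG00000022528.8, chr16:30064384-30067796, + strand), a repressor and classical Notch target, was detected in 66.5% of cells (62.7 to 70.1%), with a mean of 0.40 ± 0.53 and a highest value of 2.62. Thinning lowered its share to 40.1% (36.1 to 44.3%). Hey1 (ENSMUSG00000040289.8, chr3:8663359-8667256, - strand), a related repressor, was detected in 33.1% (29.5 to 36.8%), with a mean of 0.25 ± 0.53, and in 23.4% (19.99 to 27.1%) after thinning. The median detected cell held 0.591 reads per 10000 of Hes1 and 0.826 of Hey1, which are not scaled for length. Their shares did not overlap, Hes1 being found in more cells than Hey1.

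Hey2 (ENSMUSG00000019789.9, chr10:30832359-30842801, - strand) had 0 reads in all cells (0 to 0.561%). The share that 3 detected cells would make, used as the limit for a count of 0, is 0.457%, and it limits cells with a read, not cells that express the gene. Heyl (ENSMUSG00000032744.4, chr4:123233556-123249875, + strand) was detected in 5 cells, or 0.762% (0.248 to 1.77%). Of these 5 cells, 3 also held reads of 2 or more markers of 1 other cell type, a property of 21.6% of all cells, most of them through the arterial list. What part those cells had in the Heyl reads was not tested.

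**Figure D1:**
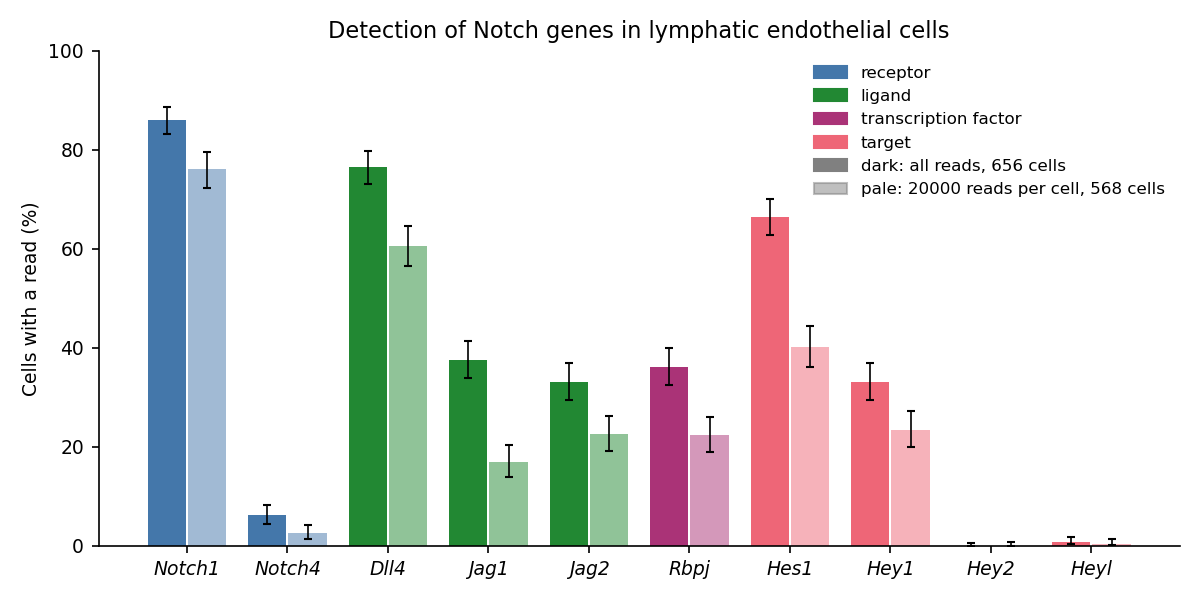
Share of cells with a read of each gene (vertical axis, percent), in all cells analysed (dark bars) and in cells thinned to 20000 reads (pale bars), coloured by role; error bars are exact 95% intervals. Notch1 and Dll4 are the tallest at 86% and 76.5%, Hes1 follows at 66.5%, and Notch4, Hey2 and Heyl lie near 0.

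**Figure D2:**
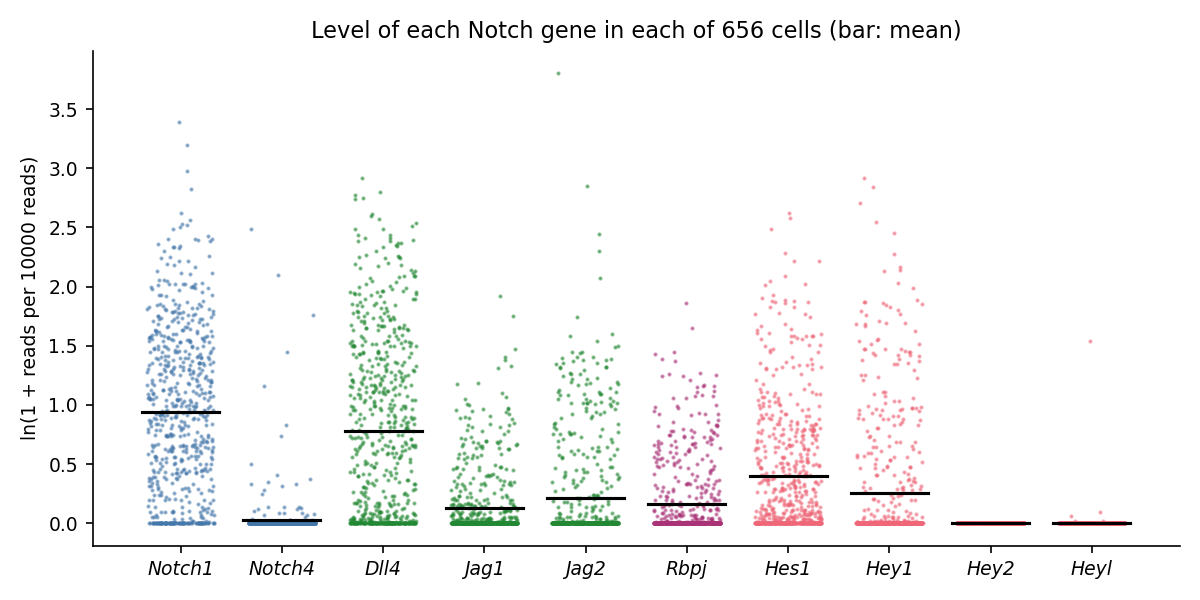
Level of each gene in each cell analysed, as the natural log of 1 plus reads per 10000; each point is a cell and each bar the mean. Notch1 and Dll4 have means of 0.94 and 0.78 and reach 3.39 and 2.91, whereas most cells sit at 0 for Notch4, Hey2 and Heyl.

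Levels of different genes can be compared only per length of transcript. Expressed per kilobase of exon and scaled so that all genes sum to 1000000, Dll4 was the highest member at 132.4, followed by Hes1 at 100.7, Hey1 at 47.01 and Notch1 at 41.6. The order by cells was different: the merged exons of Notch1 span 14.2 kb and those of Hes1 2.04 kb, and shares of cells are not scaled for this. Jag2 stood at 17.5, Jag1 at 8.81, Rbpj at 5.07, Notch4 at 1.76 and Heyl at 0.295. Rbpj ranked 9830 among the 20241 genes with a length and a read. These levels are 1 value each for the pool, so no spread over samples can be given for the steps between neighbours.

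The rest of the pathway was read from a list of 63 genes, of which 59 were analysed and 44 had reads in 10% of cells or more. All 10 proteases were detected in at least 10%, from Aph1c at 16.8% to Adam10, which makes the first cut after ligand binding, at 86.4%. Psen2, a catalytic subunit of gamma-secretase, was found in 77%. Among the 5 glycosyltransferases that modify the receptor, Lfng was the highest at 56.2% and Mfng the lowest at 3.35%. All 11 corepressors passed 10%, and Tle2 was the lowest of them at 15.7%. Of 6 coactivators, Maml2 was the highest at 59.6% and Maml3 the lowest at 5.79%. Among all genes with a read, 46.1% reached 10% of cells.

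Regulators and further targets were uneven. Egfl7, a secreted endothelial protein that binds Notch, was detected in 100% of cells, and Dtx1, a Deltex ubiquitin ligase, in 80.5% (77.2 to 83.5%), whereas Dtx4 was in 0 cells. Mib1, the ligase that drives ligand endocytosis, was found in 52.3% and Neurl1a in 1.68%. Of 7 further genes analysed that were listed with the targets, Bhlhe40 was in 83.4% of cells, Nrarp in 1.68% and Hes5 in 0.457%, and 2 passed 10%. Bhlhe40 also responds to signals other than Notch.

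The next question was whether the same cells carried a receptor and a ligand. In thinned cells, 58.5% (54.3 to 62.5%) held Notch1 or Notch4 together with Dll4, Jag1 or Jag2. One of these receptors without any of these ligands was seen in 18.1% (15 to 21.6%), a ligand of the set without either receptor in 15.5% (12.6 to 18.7%) and neither in 7.92% (5.84 to 10.5%). A receptor of the set was in 76.6% of thinned cells and a ligand in 73.9%, and the product of these shares, 56.6%, lay within the interval of the joint share. With Notch2 counted among the receptors and Dll1 among the ligands, the joint share was 69.7% (65.8 to 73.5%), a ligand alone was seen in 8.45% (6.3 to 11.05%) and neither in 4.23% (2.73 to 6.22%). Over all reads of all cells the joint share was 78.2% (74.8 to 81.3%). Dll4 was the sole ligand of the 3 in 37.5% (33.5 to 41.6%) of thinned cells, 23.9% held at least 2 of the ligands, and 13.4% held a Jagged ligand without Dll4. The full set of Notch1, a ligand and Hes1 or Hey1 was seen in 33.3% (29.4 to 37.3%).

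The targets did not mark the same cells. Hes1 without Hey1 was found in 30.3% (26.5 to 34.2%) of thinned cells, Hey1 without Hes1 in 13.6% (10.8 to 16.6%), both in 9.86% (7.53 to 12.6%) and neither in 46.3%. Hes1 was detected in 42.1% of cells with Hey1 and in 39.5% of cells without it. Hey1, however, was found in 27.1% (22.9 to 31.5%) of the cells with Notch1 and in 11.8% (6.88 to 18.4%) of those without, intervals that did not overlap. The direction was the same in both parts of the cell numbering, with 31.2% (25.8 to 37.1%) and 14% (7.42 to 23.1%) in the first 6 runs of 96 cell numbers and 20% (14.1 to 27.04%) and 8% (2.22 to 19.2%) in the last 6, where the intervals overlapped. Hes1 gave 39.4% (34.7 to 44.1%) with Notch1 and 42.6% (34.2 to 51.4%) without, which overlapped. Hey1 in cells with and without Dll4 stood at 26.5% (21.9 to 31.5%) and 18.8% (13.9 to 24.5%), which also overlapped. Dll4, Jag1, Jag2 and Rbpj were also higher in cells with Notch1, with overlapping intervals, Dll4 at 63% against 52.9%. Notch1 and Hey1 had the highest rho of the 36 pairs described next. How many of all genes differ by Notch1 detection was not counted. Notch1 was in 44.4% of the unnamed cluster's thinned cells, which had few genes, and their part was not tested.

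Covariation among the members across cells was weak. Over the 36 pairs of the 9 members with reads, the median Spearman rho in thinned cells was 0.018, 23 of the 36 were above 0, and the highest was 0.138, for Notch1 and Hey1. The cells share 1 pool, a fixed number of reads and sparse counts, so these are descriptions. Each member found in at least 30% of cells was set against 7752 genes. Hes1 had the highest values, with Fosb (0.339), Atf3 (0.326) and Zfp36 (0.316), all immediate-early genes. Dll4 was most alike to Apold1 (0.228), Ddx5 (0.215) and Nr4a1 (0.215). Hey1 was most alike to Ackr3 (0.231), Tppp3 (0.206) and Igfbp5 (0.199). For Notch1 the nearest genes were Ripor1 (0.191), Pear1 (0.176) and Adcy4 (0.166). The values for Jag1 (Rcan1, Rhbdf2 and Stc1, from 0.166 to 0.168), Jag2 (Por at 0.205, Isyna1 and Farsa) and Rbpj (Coq7 at 0.208, Rab11b and Ambra1) were of the same low size.

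The tissue had been digested before sorting, so the members were set against a score of 19 immediate-early and heat-shock genes known to respond to dissociation. Fosb, Atf3 and Zfp36, the genes nearest to Hes1, are in the score, and so is Nr4a1, among those nearest to Dll4. What follows for Hes1 and Dll4 is therefore not independent of those correlations. Thinned cells were divided into terciles of the score. Hes1 was detected in 16.8% (11.8 to 22.9%) of the 190 cells with the lowest score, in 46.8% (39.5 to 54.2%) of those in the middle and in 56.8% (49.5 to 64%) of the 190 with the highest. The lowest tercile did not overlap with either of the others. Median reads per cell before thinning were alike, at 205922, 194984 and 222994 in the same order. Median genes detected at 20000 reads were 2781, 3009.5 and 2922.5. Of the 27 thinned cells of the unnamed cluster described below, 23 were in the lowest tercile and 3 in the highest. Dll4 went from 49.5% (42.2 to 56.8%) to 62.2% and 70% (62.9 to 76.4%), and Hey1 from 15.8% (10.9 to 21.8%) to 22.9% and 31.6% (25 to 38.7%). For both genes the outer terciles did not overlap. How many of all genes separate between terciles in this way was not counted, so it cannot be called particular to the members. Rbpj stood at 16.8% and 27.9% in the outer terciles, with overlapping intervals (11.8 to 22.9% and 21.6 to 34.8%), and Notch1 at 73.7% and 74.2%.

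The Hes1 difference was seen in every cluster that could be named (clusters are described in the following paragraphs). In the Ptx3+ capillary-like cluster the Hes1 share was 16.9% in the lowest and 63% in the highest tercile, in precollecting-like cells 25% and 47.8%, in the Fndc1-led cluster 16.7% and 54.5%, in the Ptn-led cluster 13% and 73.7%, and in upstream-valve-like cells 15.4% and 63.6%. It was also higher in 11 of the 11 runs of 96 cell numbers that had at least 5 cells in both terciles. Dll4 was higher in 5 of 5 named clusters and 9 of 11 runs, and Hey1 in 4 of 5 and 9 of 11. Whether digestion set these levels, or they were present in the tissue, was not tested.

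**Figure D3:**
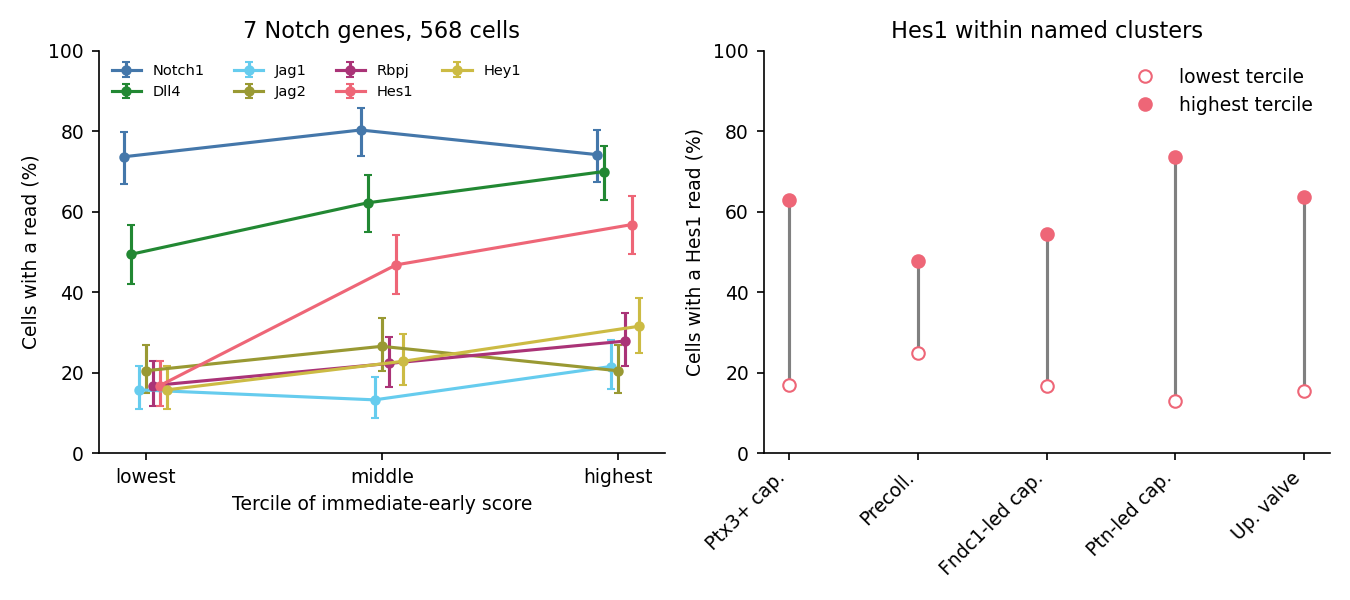
Left, share of thinned cells with a read of each of 7 genes (percent) by tercile of the immediate-early score, with exact 95% intervals; right, the Hes1 share in the lowest (open) and highest (filled) tercile within each named cluster. Hes1 goes from 16.8% to 56.8%, and the filled point lies above the open one in all 5 clusters.

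The study grouped its LECs into capillary, precollecting and valve classes, so the members were compared across clusters built with the same steps but without any member or listed pathway gene, which therefore did not define them. This gave 6 clusters. The Ptx3+ capillary-like cluster (28.8% of cells) was led by Gm525 and Stab2. The precollecting-like cluster (27.6%) had raised Foxp2, Apoe and Bmp4. Lyve1, which the study used with Foxp2 for this class, was on the list but was not raised there. The downstream-valve gene Clu was among the leading genes of this cluster, and Gja4 was 2.20 times as high as in all other cells. A pair of clusters carried Ptx3- capillary markers, 1 led by Tppp3, Fbln7 and Fndc1 (15.7%, called the Fndc1-led cluster) and 1 by Pthlh and Ptn (12.3%, the Ptn-led cluster). The upstream-valve-like cluster (11.3%) had raised Cldn11, Gata2, Neo1 and Esam. The last 28 cells had few genes (median 2774.5) and stayed unnamed. No cluster took the downstream-valve name, which needed every gene of its short list, Cldn11, Gja4 and Clu, to be raised. The naming rule therefore cannot show whether downstream-valve cells were present within other clusters. Names were rebuilt from markers and need not hold the same cells as the classes of the study.

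Among the 5 named clusters, Hey1 had the widest range of the 7 members found in 10% of cells or more, 31.7 percentage points in thinned share and 0.35 in mean natural log value, against 17.9 points and 0.27 for Dll4. Its linear mean was 0.304 reads per 10000 in the Ptx3+ capillary-like cluster, 0.446 in precollecting-like, 1.32 in the Fndc1-led, 0.839 in the Ptn-led and 0.454 in upstream-valve-like cells. In thinned cells its share was 11.3% (6.85 to 17.3%) in the Ptx3+ capillary-like and 43% (32.4 to 54.2%) in the Fndc1-led cluster, and the other named clusters lay between, from 22.2% to 30.4%. On the log2 scale the Fndc1-led mean was 1.81 above the Ptx3+ capillary-like mean, with 0.1 reads per 10000 added to both.

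This Hey1 difference was not the same across cell numbers, which the labels give and which may or may not follow the plates. It was present in the first 6 runs of 96 cell numbers, where 52.2% (39.7 to 64.6%) of 67 Fndc1-led cells and 11.8% (5.79 to 20.6%) of 85 Ptx3+ capillary-like cells held Hey1. In the last 6 runs the shares were 10.5% (1.30 to 33.1%) of 19 cells and 10.8% (4.78 to 20.2%) of 74 cells. The Fndc1-led cluster was higher in 8 of the 12 runs, which held 2 to 17 Fndc1-led cells each. With cells divided by the markers alone, Hey1 was in 29.2% (22.5 to 36.7%) of cells with Fndc1 and no Stab2 and in 19.1% (12.9 to 26.7%) of cells with Stab2 and no Fndc1, and these intervals overlapped. The division into first and last runs was made after the values had been seen.

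Dtx1, which also separated these clusters, kept the direction of its difference. It was detected in 47.2% (39.2 to 55.2%) of thinned Ptx3+ capillary-like cells and 81.4% (71.6 to 89%) of Fndc1-led cells. Its mean was higher in the Fndc1-led cluster in 12 of 12 runs, which held 2 to 17 Fndc1-led cells each. By Fndc1 and Stab2 alone it stood at 76.6% (69.5 to 82.7%) and 46.3% (37.7 to 55.1%). Both markers are leading genes of these clusters, so that division is not independent of them. Upstream-valve-like cells had the highest share, 89.2% (79.1 to 95.6%).

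Of the 7 members tested for size, those past a fold of 1.5 against all other cells were few in every named cluster. The Ptx3+ capillary-like cluster had Hes1 higher (1.65 times) and Hey1 lower (0.496 times), against 6.33% of 9666 genes higher and 4.68% lower. The Hes1 mean was not matched by its share in thinned cells, 41.5% (33.8 to 49.6%) in that cluster and 34.9% to 50.8% in the other named clusters. The Fndc1-led cluster had Hey1 higher (2.53 times) and Jag2 lower (0.582 times), against 4.84% and 8.66% of genes. In the Ptn-led cluster Jag1 was higher (1.60 times), with no member lower, against 5.13% and 6.65%. The upstream-valve-like cluster had no member higher and Jag2 lower (0.607 times), against 6.62% and 10.6%. In the precollecting-like cluster no member passed in either direction, against 2.8% and 5.76%.

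The Jagged ligands differed between clusters with wide intervals. Jag1 was in 26.1% (16.3 to 38.1%) of thinned Ptn-led cells and 13.8% (8.88 to 20.2%) of Ptx3+ capillary-like cells. Jag2 was in 12.8% (6.56 to 21.7%) of Fndc1-led cells and 29% (18.7 to 41.2%) of Ptn-led cells. Both pairs of intervals overlapped. Notch1, Dll4 and Rbpj did not pass the fold in any named cluster. Notch1 was in 74.7% to 84.9% of thinned cells across the named clusters, Dll4 in 52.8% to 70.8% and Rbpj in 17.4% to 30.8%. Over all 10 members, the median distance between the highest and the lowest cluster mean was 0.136 on the natural log scale, with Hey2, Heyl and Notch4 near 0. For the 7 members found in 10% of cells or more it was 0.35, against 0.16 over the 9666 genes that reached the same share. All of these distances include the unnamed cluster, and the widest were those of Dll4 (0.82) and Notch1 (0.62). Among the named clusters alone, Dll4 ranged over 0.27, Notch1 over 0.18 and Hes1 over 0.17, while Hey1 stayed at 0.35. The distance over all genes was not taken without the unnamed cluster, so the excess of the members cannot be assigned to the named clusters.

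Among the 44 other pathway genes, 6 (13.6%) were past the fold upward in the Ptx3+ capillary-like cluster, against 6.33% of the 9666 genes. Among them were the receptor Notch2 (1.60 times), the receptor glycosyltransferase Lfng (1.503 times), the ligand ligase Mib2 (1.76 times), Dtx3l (1.64 times) and the corepressor Tle2 (1.77 times). The 3 downward (6.82%, against 4.68% of all genes) were Dll1, Aph1b and Dtx1, the last at 0.461 times. Notch2 was in 62.3% (54.2 to 69.8%) of thinned Ptx3+ capillary-like cells and 42% to 52.3% in the other named clusters. The upstream-valve-like cluster had Dtx1 (1.79 times) and Bhlhe40 (1.53 times) higher, 4.55% against 6.62% of all genes. It had 7 genes lower, among them Lfng and Dll1, 15.9% against 10.6%. Dll1 was the 1 pathway gene higher in precollecting-like cells (1.76 times) and also in the Ptn-led cluster (1.65 times). That is 2.27% in each, against 2.8% and 5.13% of all genes. The Ptn-led cluster had 7 genes lower, 15.9% against 6.65%. The Fndc1-led cluster had Aph1b higher (1.64 times), 2.27% against 4.84% of all genes. It had 4 genes lower, Egfl7 (0.615 times) among them, 9.09% against 8.66%.

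**Figure D4:**
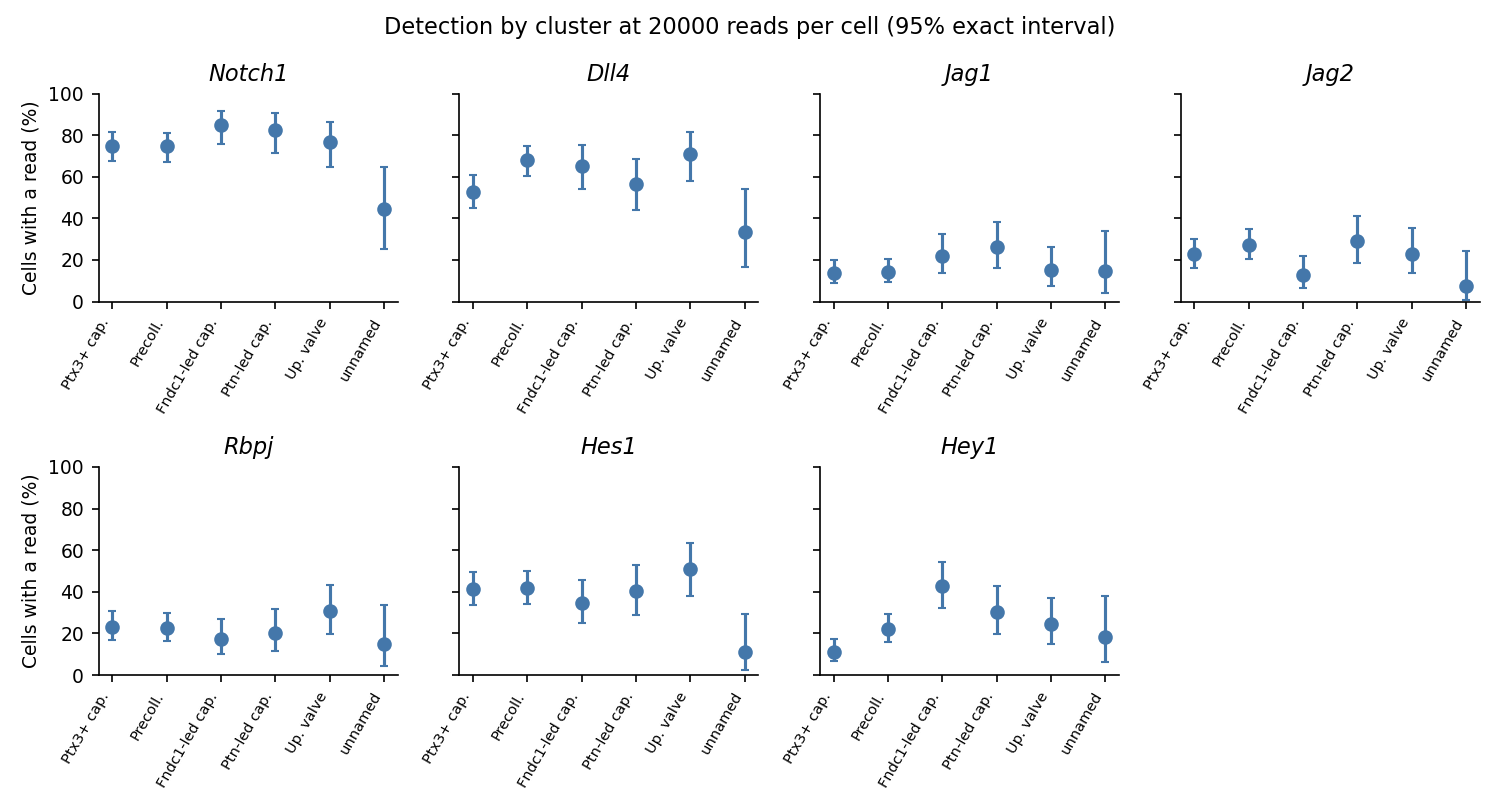
Share of thinned cells with a read (vertical axis, percent) for 7 genes in each of the 6 clusters, with exact 95% intervals. Hey1 is lowest in the Ptx3+ capillary-like cluster (11.3%) and highest in the Fndc1-led cluster (43%), while Notch1 stays between 74.7% and 84.9% in the named clusters.

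The unnamed cluster was uneven in the members. Of its 27 thinned cells, 44.4% (25.5 to 64.7%) held Notch1, 33.3% (16.5 to 54%) Dll4 and 11.1% (2.35 to 29.2%) Hes1. By linear mean Jag2 was 4.03 times, Notch4 3.56 times and Rbpj 1.24 times the other cells, with Jag2 in 7.41% (0.91 to 24.3%) and Notch4 in 3.7% (0.0937 to 18.97%) of its thinned cells. Its few detected genes per cell lie beside these values, and their part in them was not tested.

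Valve cells were also looked at by markers, since Cldn11 with and without Gja4 separates valve sides in the study. Dll4 was in 53% (45.8 to 60.01%) of the thinned cells with neither marker and 71.9% (63.01 to 79.7%) of those with Cldn11 alone, intervals that did not overlap. It was in 61.3% (52 to 70.1%) of those with Gja4 alone and in 61.1% (52 to 69.7%) of those with both. Dll4 with Cldn11 alone and with neither stood at 66.7% (55.1 to 76.9%) and 44.9% (35.7 to 54.3%) in the first 6 runs, and at 81.4% (66.6 to 91.6%) and 64.3% (53.1 to 74.4%), with overlap, in the last 6. Dtx1 was in 55.9% (48.8 to 62.9%) with neither and 79.4% (71.2 to 86.1%) with both. Notch1 was in 74.3%, 79.3% and 73.8% of cells with neither, Cldn11 alone and both. Hey1 was in 20.8%, 26.4% and 19.8% in the same order.

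Across the 12 runs of 96 cell numbers, thinned shares ranged from 65.7% to 87.5% for Notch1, 48.1% to 82.9% for Dll4, 10% to 55.6% for Hes1 and 5.41% to 38.9% for Hey1. The lowest Hes1 share came from 20 thinned cells in run 9 and the lowest Hey1 share from 37 in run 10. Cells with numbers in the first 6 runs held Hey1 in 27.1% (22.6 to 32%) and Hes1 in 44.4% (39.2 to 49.7%), against 17.1% (12.3 to 22.9%) and 32.9% (26.5 to 39.7%) in the last 6, and both pairs of intervals overlapped slightly.

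**Figure D5:**
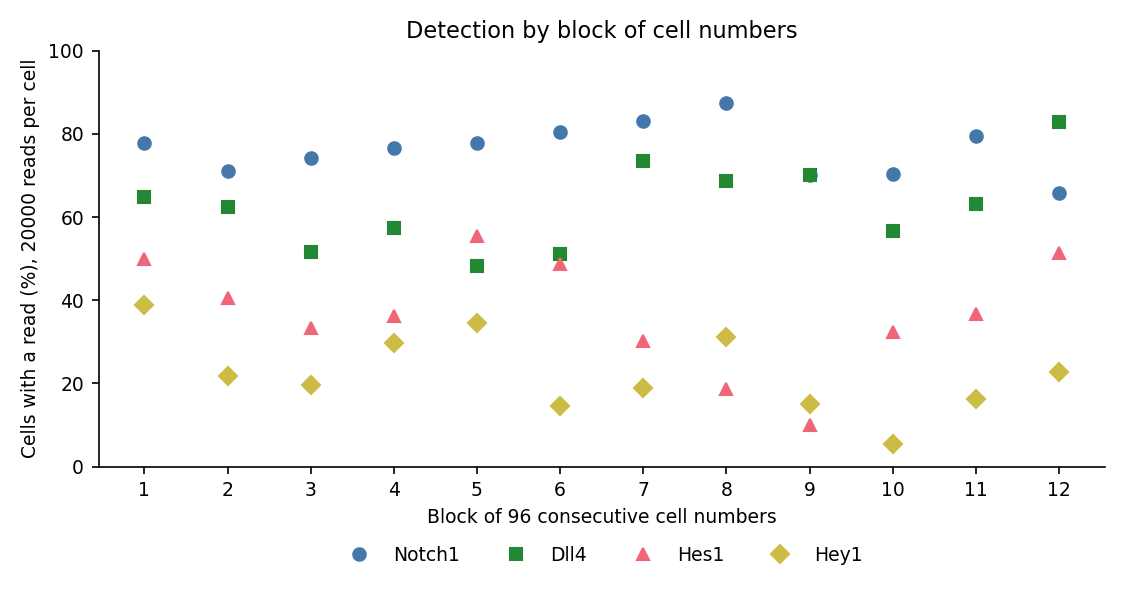
Share of thinned cells with a read (vertical axis, percent) of Notch1, Dll4, Hes1 and Hey1 in each of the 12 runs of 96 consecutive cell numbers (horizontal axis); each point is 1 run. Notch1 stays between 65.7% and 87.5%, whereas Hes1 goes from 10% to 55.6% and Hey1 from 5.41% to 38.9%.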

How the data were processed

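Of 1152 labelled cells, 656 were analysed here, and 568 of them had enough reads to be thinned to 20000. Per the methods, the authors aligned reads to mm10 (STAR), summed them per gene (featureCounts) and discarded cells with under 2000 genes or over 10% mitochondrial reads. The deposited values were natural log values of 1 plus reads per 10000: the methods name log2, but the linear values summed to 10000 in every cell only with the natural log. Taking the smallest value above 0 in a cell as 1 read gave whole reads for 100% of values within 0.01 reads. Reads, not molecules, were counted, so PCR copies remained.

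Cells were clustered with Seurat 5.3.0 (R 4.3.3): 2000 variable genes without the Notch genes, regression of depth, mitochondrial share, dissociation and ribosomal scores, 15 principal components, and the lowest resolution giving at least 5 clusters, 0.7. Past the fold means a linear mean, plus 0.1, at 1.5 times or 1/1.5 times that of all other cells, among genes in at least 10% of cells. Intervals used scipy 1.17.1 and positions GENCODE M21 (GRCm38). Cluster names needed at least 3 raised markers. No doublet caller was run, as cells were sorted 1 per well. Named were the 10 members, pathway genes past the fold or at the ends of their role, a partner list, and the 3 genes most alike to each member in at least 30% of cells; other pathway genes named, and the addition of Notch2 and Dll1 to the co-detection classes, were chosen after values were seen. The members and lists were chosen with earlier results of these data known.

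Read recovery, thinning, fold calls, likeness and clustering were tested on simulated data: reads were recovered in 100% of cells, a planted partner gene ranked 1 among 10242, 89% of genes changed 2-fold and 98% of those changed 4-fold passed 1.5-fold, and 98.5% of cells lay in a cluster led by their class.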

Additional observations from a re-analysis of the deposited data

How the results depend on the processing

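The median share of the members, 34.6%, was 6.71% when a value above 1 on the natural log scale was required, 22.4% with thinned reads and 41% once the 25% of cells detecting fewest genes had been removed. The share of cells with a receptor and a ligand, 58.5%, was 71.8% at 50000 reads per cell and 78.2% over all reads. The median distance between clusters, 0.136, was 0.0897 with 10 principal components and 0.0526 with cells divided by Cldn11 and Gja4. The median rho, 0.0181, was 0.0292 over all reads (28 of 36 pairs above 0) and 0.00832 with the number of detected genes regressed. The cause of these shifts was not tested. In the other 19 settings tried for these results and for the Hes1 tercile difference, values stayed within the interval of the reported value or within 1.5 times of it. Among these, the Hes1 difference of 40 percentage points between outer terciles ran from 30.4 to 37.8. The log2 difference of Hey1 between the Fndc1-led and Ptx3+ capillary-like clusters, 1.81, ran from 1.25 without regression to 2.54 with thinned reads. Across the same settings Dtx1 (1.02) ran from 0.82 to 2.09, Hes1 (-0.853) from -1.29 to -0.363 and Lfng (-0.769) from -0.847 to -0.158. All of these cluster settings were chosen after seeing the data. Of the settings tried for shares and cluster differences of single genes, 41 moved past these limits and 60 did not. No paired analysis was possible because there is 1 group and no result comes from a test. Shares at low depth understate how many cells express a gene, and 1 pool gives no spread over mice.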

Other observations

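Genes that work beside Notch in endothelium were read from a list of 18, of which 17 were analysed. Of these, 14 had reads in 10% of cells or more, as did 46.1% of all genes with a read. Their median share was 72.6%, against 7.62% over all genes with a read. The list was chosen from known endothelial genes, so these shares do not describe genes picked without regard to the cell type. The lymphatic regulators Flt4, Prox1 and Nr2f2 were found in 100%, 97.1% and 86.7% of cells. Sox18, a transcription factor of lymphatic fate, was in 72.6% of cells, whereas Sox17, known from arteries, was in 1.98%. The BMP9 and BMP10 receptor Acvrl1 and its partner Eng were found in 78.5% and 99.2%, their target genes Id1 and Id3 in 43.3% and 86.9%, and the inhibitors Smad6 and Smad7 in 0.457% and 5.18%. The flow-responsive genes Klf2 and Klf4 were in 82.3% and 97.1%, and the valve regulators Foxc1 and Foxc2 in 26.8% and 15.9%.

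Efnb2 and Gja4, an ephrin ligand and a connexin linked to Notch in arteries, were detected in 62.5% and 57.8% of cells and were led by the precollecting-like cluster. Efnb2 was 1.91 times and Gja4 2.20 times as high there as in all other cells, by linear means. They were 2 of the 14 partner genes tested, with 0 lower, against 2.8% and 5.76% of all genes tested. In thinned cells Efnb2 was in 74.7% (67.3 to 81.2%) of precollecting-like cells and in 32.7% (25.5 to 40.6%) of Ptx3+ capillary-like cells. No member of the Notch set passed the fold in the precollecting-like cluster. In the Ptx3+ capillary-like cluster Eng (1.76 times), Id1 (1.56 times) and Id3 (1.55 times) were higher, while Efnb2, Gja4, Foxc1 and Foxc2 were lower. That is 3 and 4 of the 14, against 6.33% and 4.68% of all genes tested. The Id1 and Id3 means were not matched by their thinned shares. Id1 was in 32.1% of cells there and 27.9% to 40% in the other named clusters, and Id3 in 78% against 65.1% to 82.7%. Cluster values come from 1 pool and carry no test.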
